A study of Mus musculus with 17 samples.

Results

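MHCII+CD11c- macrophages are a subset of the macrophages of the synovium, the membrane that lines joints, which was sorted for surface MHC class II (stained as I-A/I-E) and for the absence of CD11c. Their response to immune complexes (IC) was measured by bulk RNA-seq in 6 of the 17 libraries of the series, 3 labelled as IC and 3 as control, chosen by the sample titles. All 6 libraries came from adult mice labelled Fcgr2b-KO, so the controls also carried the deletion of this gene, which encodes the inhibitory Fc receptor for IgG. The IC were injected into a vein 8 h before collection and, by the methods of the study, were ovalbumin bound by rabbit antibodies against it. What the control mice received, and whether a library was 1 mouse or a pool, is not stated for these samples. The p-values therefore measure the spread between libraries, which may be technical in part and was estimated over all 17 libraries. The other 11 libraries were 6 of LYVE1+CX3CR1+ and 5 of MHCII+CD11c+ macrophages from the same kinds of mice.

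IC are clusters of antigen and antibody that bind Fc receptors on macrophages. Activating receptors signal through the shared Fc receptor gamma chain (Fcer1g) and the kinase Syk, and FcgRIIb, the product of Fcgr2b, holds this signal back. Macrophages with high MHC class II of tissues such as the synovium present antigen to T cells, and macrophages that are triggered through Fc receptors release chemokines, which recruit other leukocytes. A stress in the whole animal also raises glucocorticoids, which act on macrophages through a nuclear receptor.

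The libraries held between 2886696 and 5804056 counts, within the range of 2301913 to 7248939 of the whole series. The class II genes that mark the sort, H2-Eb1, H2-Aa and Cd74, were abundant in all 6 libraries and summed to 13725, 12135 and 12167 CPM in control libraries 1, 2 and 3 and to 8475, 8723 and 8579 in IC libraries 1, 2 and 3, where CPM are counts scaled to the library size, with TMM factors. Itgax, which encodes CD11c, lay between 8.24 and 16.1 CPM in the 6 libraries, whereas its mean was 348 in MHCII+CD11c+ controls. Fcgr2b had 182, 107 and 126 CPM in controls and 159, 141 and 114 after IC, and since the table has 1 value per gene it does not say which exons were read, so it does not check the knockout. Summed markers of LYVE1+CX3CR1+ macrophages and dendritic cells did not overlap between the groups, though none of the marker genes was called in the fit across all 17 libraries. The 4 markers of LYVE1+CX3CR1+ macrophages summed to 862, 1634 and 993 CPM in controls and to 3200, 1727 and 2675 after IC, higher in every IC library. Most of this sum was Lyve1, which was called in the fit on the 6 libraries alone (adjusted p = 0.0352). The groups of the other markers, Timd4, Vsig4 and Cx3cr1, overlapped, with log2 fold changes of 0.646, 0.988 and −0.507, so the sum mainly reads Lyve1. The 8 dendritic cell markers summed to 200.3, 110.1 and 275 CPM in controls and 93.8, 105 and 80.6 after IC, lower in every IC library. The largest part was Cd209a (115, 71.4 and 153.8 CPM and then 63.2, 51.9 and 44.85). Cd209a also stood in the list of interstitial macrophage markers used below, so this sum is not particular to dendritic cells. The groups of the dendritic cell markers Zbtb46 and Siglech overlapped. The sums of the 10 neutrophil markers (383, 150.0 and 53.8 and then 68.7, 115 and 67.7 CPM) overlapped. After IC most of this was Csf3r (66.7, 92.5 and 47.9 CPM), while Ngp had 99.8, 19.6 and 1.34 CPM in controls and then 0.887, 3.09 and 1.10. Of 8 T and NK cell markers only 3 were among the counted genes, and they summed to between 4.95 and 13.4 CPM. Markers that were not counted, such as Cd3e and Trac, could not be read. The part of these cells in the results was not tested. Of the controls, library 3 had the lowest correlations of log2 CPM to the others (0.905 and 0.889), while by the chi-square of their counts library 2 differed most (39.2 and 28.4 per degree of freedom, against 11.8 between libraries 1 and 3). In bulk samples fewer cells of a type and less RNA per cell cannot be told apart.

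The comparison asked which genes change 8 h after IC. Of 15272 genes tested, 107 were called (0.701%) at an adjusted p under 0.05 by the quasi-likelihood test of edgeR with Benjamini-Hochberg adjustment, which holds for every adjusted p given here. Higher after IC were 83 genes (0.543%) and lower 24 (0.157%). The direction depended in part on the method, since library totals without scaling gave 55 higher and 29 lower and DESeq2 168 and 119. Of the 107, 76 differed by over 1 log2 unit (0.498% of genes). In all 107, the 3 IC libraries did not overlap with the 3 controls. An unadjusted p under 0.05 was reached by 9.99% of genes (5.19% higher, 4.81% lower). Over all genes tested, 8.72% had each IC library above each control and 8.48% the reverse, and the median log2 fold change was −0.03. The higher genes ranged from 0.72 to 7.61 log2 units and the lower ones from −6.75 to −1.003. Of the 107 calls, 22 (19 higher and 3 lower) held under each of 17 alternative settings, 21 were lost under 1 to 3 of them and 64 under 4 or more. Leaving out IC library 3 left 29 calls, IC library 2 61 and control library 1 or control library 3 41 each, while 173 genes were called without control library 2 (82 of them among the 107) and 132 without IC library 1. For 50 of the 107 genes, the highest adjusted p was the one without IC library 3.

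**Figure D1:**
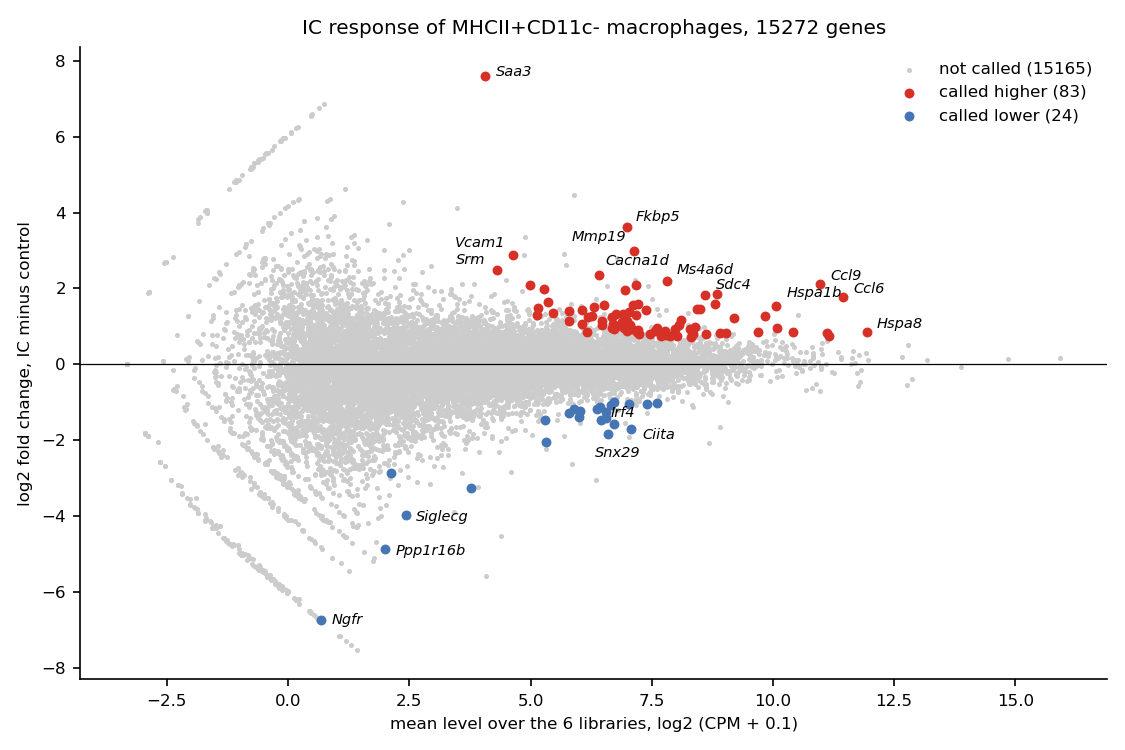
Log2 fold change after IC (vertical axis) against the mean level over the 6 libraries (horizontal axis, log2 of CPM + 0.1) for 15272 genes, with 83 genes called higher in red, 24 called lower in blue and the rest in grey. Most called genes lie at intermediate and high levels, while Saa3, Ngfr, Ppp1r16b and Siglecg stand at low levels with large fold changes.

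The called genes were then read by function, in 36 gene lists that together held 644 tested genes and 36 of the 107 called ones. These lists were chosen with earlier results of these data known, so their counts of calls are a description, not a test. Over all genes tested, 0.701% were called, 0.543% higher and 0.157% lower. There were 6 lists with 3 or more called members, all of them higher, namely glucocorticoid response genes (5 of 24), heat shock proteins and co-chaperones (4 of 25), CC chemokines (4 of 13), type I interferon-stimulated genes (3 of 29), the Ms4a family (3 of 11) and Nrf2 and oxidative stress genes (3 of 20). The median log2 fold changes of the members were 0.594, 0.552, 1.52, 0.94, 1.58 and 0.356 in this order. MHC class II presentation genes had the lowest median, −0.918.

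**Figure D2:**
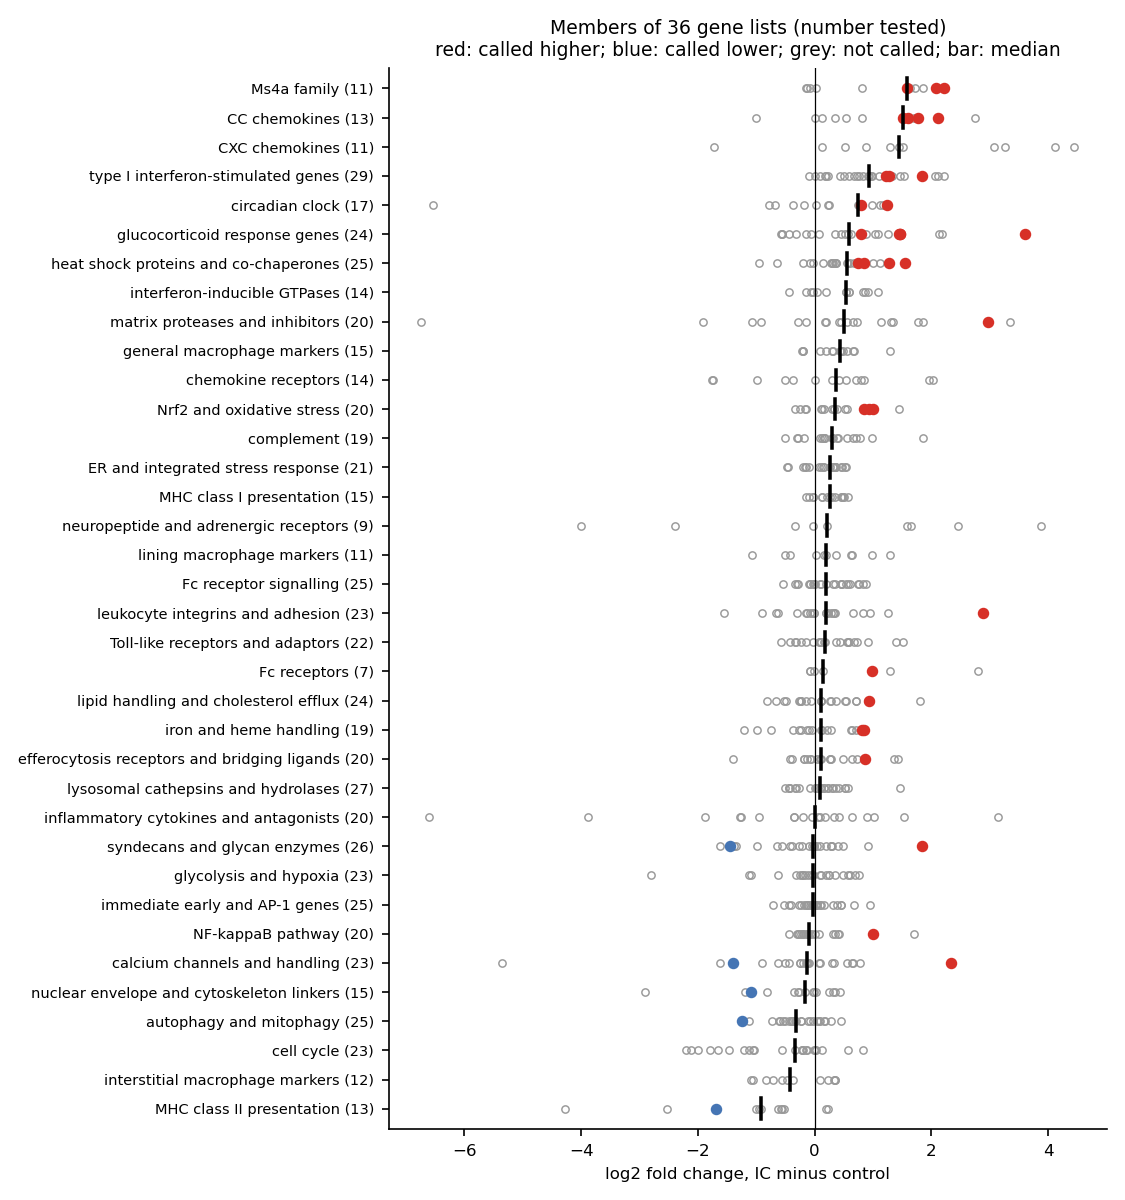
Log2 fold change after IC (horizontal axis) of each tested member of 36 gene lists (rows, with the number tested), sorted by the median, which is a black bar. Filled points are called genes, red higher and blue lower, and open points are not called. Ms4a, CC chemokine and CXC chemokine lists have the highest medians (1.58, 1.52 and 1.45) and MHC class II presentation the lowest (−0.918), and the CXC list has no filled point.

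Of 24 glucocorticoid response genes 5 rose and none fell, with a median of 0.594 log2 units. Glucocorticoids bind the receptor encoded by Nr3c1, which then moves to the nucleus and binds DNA. Fkbp5, a co-chaperone of that receptor and one of its best known targets, had 17.7, 27.0 and 12.4 CPM in control libraries 1, 2 and 3 and 206, 162 and 341 in IC libraries 1, 2 and 3. This was a rise of 12.2-fold (3.61 ± 0.36 log2 units, adjusted p = 6.32e-05), the smallest p of all genes. Here and after, a log2 fold change from the fit is given ± its SE. Tsc22d3, which encodes the anti-inflammatory protein GILZ, had 194, 139 and 244 CPM and then 600.2, 416 and 567. Its lowest IC library was still well above its highest control (1.46 ± 0.21 log2 units, adjusted p = 0.000526). Map3k6, a kinase of the stress-activated MAP kinase cascade, had 36.3, 33.0 and 38.1 CPM in controls and 76.0, 91.3 and 124 after IC, with the controls tightly grouped (1.44 ± 0.25 log2 units, adjusted p = 0.00406).

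Mt1 and Per1 completed the called members. Mt1, the metal-binding metallothionein 1, had 169.6, 145 and 238 CPM in controls and 452, 470.3 and 598 after IC (1.46 ± 0.32 log2 units, adjusted p = 0.0482). Per1, which is also a clock gene, had 199, 249 and 269 CPM and then 442, 416 and 381 (0.79 ± 0.18 log2 units, adjusted p = 0.038). Neither had overlapping groups, but both calls were lost under most alternatives, 11 of 17 for Mt1 and 12 for Per1. The calls of Fkbp5 and Tsc22d3 held under all 17. Of the 24 members, 17 had a fold change above 0, and 13 had each IC library above each control, against 8.72% of all genes tested. Among the members that did not pass the test, Klf9 had a log2 fold change of 0.88 ± 0.24 (adjusted p = 0.1), Dusp1, a phosphatase that switches off MAP kinases, 0.46 ± 0.15 (adjusted p = 0.204), and the receptor gene Nr3c1 itself −0.56 ± 0.19 (adjusted p = 0.232).

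The promoters of the 5 called members were searched for the palindrome to which the receptor binds. RefSeq windows (GRCm38.p6) of 300 bases, from 250 before to 50 after a gene start, were read for GNACA followed after any 3 bases by TGTNC, which reads the same on both strands and was found in 0.475% of 32851 windows. Of the 8 windows of these 5 genes, 2 held it, those of Mt1 (chr8:94178839-94179138, plus strand) and Map3k6 (chr4:133240568-133240867, plus strand). They are shown because they place the motif beside genes that rose together, and a match describes letters, not binding. The motif is in capitals.
Mt1: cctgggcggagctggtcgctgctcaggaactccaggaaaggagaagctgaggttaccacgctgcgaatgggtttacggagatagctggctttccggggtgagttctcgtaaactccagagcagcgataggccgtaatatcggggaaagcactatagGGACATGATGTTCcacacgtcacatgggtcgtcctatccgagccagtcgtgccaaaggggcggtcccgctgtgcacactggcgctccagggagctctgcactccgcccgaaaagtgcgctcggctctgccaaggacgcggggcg
Map3k6: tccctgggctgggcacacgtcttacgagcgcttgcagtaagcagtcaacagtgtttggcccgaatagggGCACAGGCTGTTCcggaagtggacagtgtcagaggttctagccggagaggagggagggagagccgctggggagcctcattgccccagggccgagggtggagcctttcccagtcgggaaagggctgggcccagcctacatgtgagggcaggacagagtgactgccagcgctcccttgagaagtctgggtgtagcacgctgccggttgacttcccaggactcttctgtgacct
In Mt1 the motif starts 94 bases and in Map3k6 181 bases before the gene start. The windows of Fkbp5, Tsc22d3 and Per1 did not hold it, which says nothing on sites outside the windows.

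Clock genes overlapped with this list in Per1. Per1 and Per2 encode repressors of the daily cycle that are switched on by Arntl and its partner and, in many tissues, by hormones. Per2 had 65.0, 43.6 and 75.6 CPM in controls and 151, 135 and 146 after IC, a difference well beyond the spread of the libraries (1.24 ± 0.27 log2 units, adjusted p = 0.0251, lost under 6 of 17 alternatives and up to 0.117). Of 17 clock genes tested, 2 rose and 12 had a fold change above 0 (median 0.735). Cry1 and Cry2, the other repressors of the cycle, had log2 fold changes of 1.12 ± 0.31 and 0.99 ± 0.31 and the activator Arntl −0.79 ± 0.30. None of these 3 passed the test (adjusted p = 0.111, 0.189 and 0.329), although their groups did not overlap. Of all genes tested, 8.72% had each IC library above each control and 8.48% the reverse. Whether the groups were collected at the same hour of day is not given in the sources used here.

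Heat shock proteins fold damaged or newly made proteins, and their genes are driven by heat shock factors. Hspa1b and Hspa1a, the inducible Hsp70 genes, lie next to each other on chromosome 17. Hspa1b (chr17:34956436-34959238, minus strand of GRCm38) had 645, 413 and 585 CPM in controls and 1167, 1429 and 2205 after IC (1.55 ± 0.21 log2 units, adjusted p = 0.000379). Hspa1a (chr17:34969190-34972156, minus strand) had 632, 429 and 549 CPM and then 973, 1192 and 1721 (1.27 ± 0.19 log2 units, adjusted p = 0.000899). Control library 2 was lowest and IC library 3 highest for both. The genes are near-identical copies, and how reads that fit both were counted is not given in the sources used here, so their values are not separate evidence.

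Constitutive members rose as well. Hspa8, the Hsc70 chaperone, had 2659, 2853 and 2851 CPM in controls and 3918, 5194 and 5999 after IC (0.85 ± 0.15 log2 units, adjusted p = 0.00413). Hsp90ab1, an Hsp90 isoform, had 1762, 1808 and 1508 CPM and then 2585, 2721 and 3232 (0.75 ± 0.14 log2 units, adjusted p = 0.00872). For both genes the controls lay close together and the IC libraries stood apart from them. Calls of Hspa1b and Hspa1a held under all alternatives, that of Hspa8 was lost under 2 and that of Hsp90ab1 under 4 of 17. The median of 25 members was 0.552 log2 units, with 20 above 0. In 11 members each IC library was above each control, against 8.72% of all genes tested. The inducible isoform Hsp90aa1 (0.79 ± 0.20 log2 units, adjusted p = 0.0753), Hspe1, the cofactor of the mitochondrial chaperonin (1.12 ± 0.32, adjusted p = 0.124), and Hsph1 (0.78 ± 0.23, adjusted p = 0.141) did not pass the test. The cells of both groups had been through a collagenase digest before the sort.

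Windows of Hspa1b (chr17:34959189-34959488, minus strand) and Hspa1a (chr17:34972107-34972406, minus strand) are shown with the core of a heat shock element in capitals. The letters searched were GAANNTTC and TTCNNGAA on both strands, which occur in 15.1% of all windows, so the match alone is common. Windows of the other 2 called members were not matched in the table.
Hspa1b: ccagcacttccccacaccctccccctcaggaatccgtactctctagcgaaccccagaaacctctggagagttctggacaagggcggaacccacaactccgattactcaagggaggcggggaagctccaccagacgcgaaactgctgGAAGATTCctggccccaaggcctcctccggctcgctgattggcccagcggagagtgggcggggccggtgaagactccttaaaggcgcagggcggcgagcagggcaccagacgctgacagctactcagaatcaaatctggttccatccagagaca
Hspa1a: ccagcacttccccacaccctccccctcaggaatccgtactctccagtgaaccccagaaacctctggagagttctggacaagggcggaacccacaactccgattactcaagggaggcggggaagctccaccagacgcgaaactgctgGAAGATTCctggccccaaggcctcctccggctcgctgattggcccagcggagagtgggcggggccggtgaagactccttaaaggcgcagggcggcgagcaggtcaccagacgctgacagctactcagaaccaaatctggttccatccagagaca
Both have the element 104 bases before the gene start, and the windows were the same at 296 of 300 bases (98.7%).

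CC chemokines had the highest median after the Ms4a family, and 4 of 13 tested members rose. They recruit monocytes and other leukocytes through CC receptors. Ccl9, a ligand of CCR1, had 670.3, 899 and 709 CPM in controls and 2240, 2682 and 4900 after IC (2.11 ± 0.24 log2 units, adjusted p = 0.000149). Ccl6, its neighbour and relative on chromosome 11, had 1327, 1028 and 1396 CPM and then 2480, 3152 and 7246 (1.78 ± 0.30 log2 units, adjusted p = 0.00876). IC library 3 was far above the other IC libraries for both. Ccl3, which encodes MIP-1 alpha, had 38.6, 52.8 and 30.4 CPM and then 96.9, 167 and 86.1, highest in IC library 2 (1.52 ± 0.30 log2 units, adjusted p = 0.0145). Ccl24, an eosinophil attractant, had 232, 126 and 310.3 CPM and then 436, 683 and 898 (1.59 ± 0.32 log2 units, adjusted p = 0.0252).

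Members that did not pass the test differed widely. The monocyte attractants had log2 fold changes of −0.001 ± 0.21 (Ccl2), 0.55 ± 0.29 (Ccl7), 0.35 ± 0.46 (Ccl8) and 1.60 ± 0.44 (Ccl12), with adjusted p = 1, 0.571, 0.914 and 0.107. For Ccl2, controls of 291, 411 and 429.6 CPM and IC libraries of 302, 398 and 429.8 covered the same range. Ccl4, the MIP-1 beta gene beside Ccl3, had 0.81 ± 0.54 (adjusted p = 0.719) and Ccl5 2.76 ± 0.89 (adjusted p = 0.209) at under 10 CPM in every library. The call of Ccl9 held under all 17 alternatives, and those of Ccl6, Ccl3 and Ccl24 were lost under 2, 3 and 4, among which were the fit on the 6 libraries alone for Ccl6 (adjusted p = 0.129) and the one without IC library 3 for Ccl24 (adjusted p = 0.146). The windows of Ccl9, Ccl6 and Ccl3 did not hold GGGA followed after any 2 bases by TTCC, a form of the kappaB site found on either strand in 1.47% of windows.

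None of 11 CXC chemokines was called, although their median was 1.45 log2 units and 10 of 11 were above 0. In 7 of them each IC library was above each control, against 8.72% of all genes tested. Cxcl2, a neutrophil attractant, had 348, 919 and 378 CPM in controls and 1091, 1467 and 1460 after IC, with the highest control close to the lowest IC library (1.29 ± 0.35 log2 units, adjusted p = 0.136). Cxcl1, its relative, had 30.7, 131 and 57.5 CPM and then 193, 235 and 197 (1.51 ± 0.56, adjusted p = 0.36). Control library 2 was the highest control for both. Cxcl13, a B cell attractant, had 11.7, 2.47 and 1.003 CPM and then 115, 96.6 and 131 (4.45 ± 1.28, adjusted p = 0.225). None of these 3 differences passed the test, in a fit that estimated a biological coefficient of variation of 45.1%. Cxcl2 was called under 3 of 17 alternatives, with adjusted p from 0.00128 without control library 2 to 0.446 without IC library 3. Of 14 chemokine receptors none was called (median 0.359), and the smallest p were those of C5ar1, a receptor for complement C5a (0.72 ± 0.27, adjusted p = 0.32), and Ccr7 (−1.73 ± 0.81, adjusted p = 0.505).

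**Figure D3:**
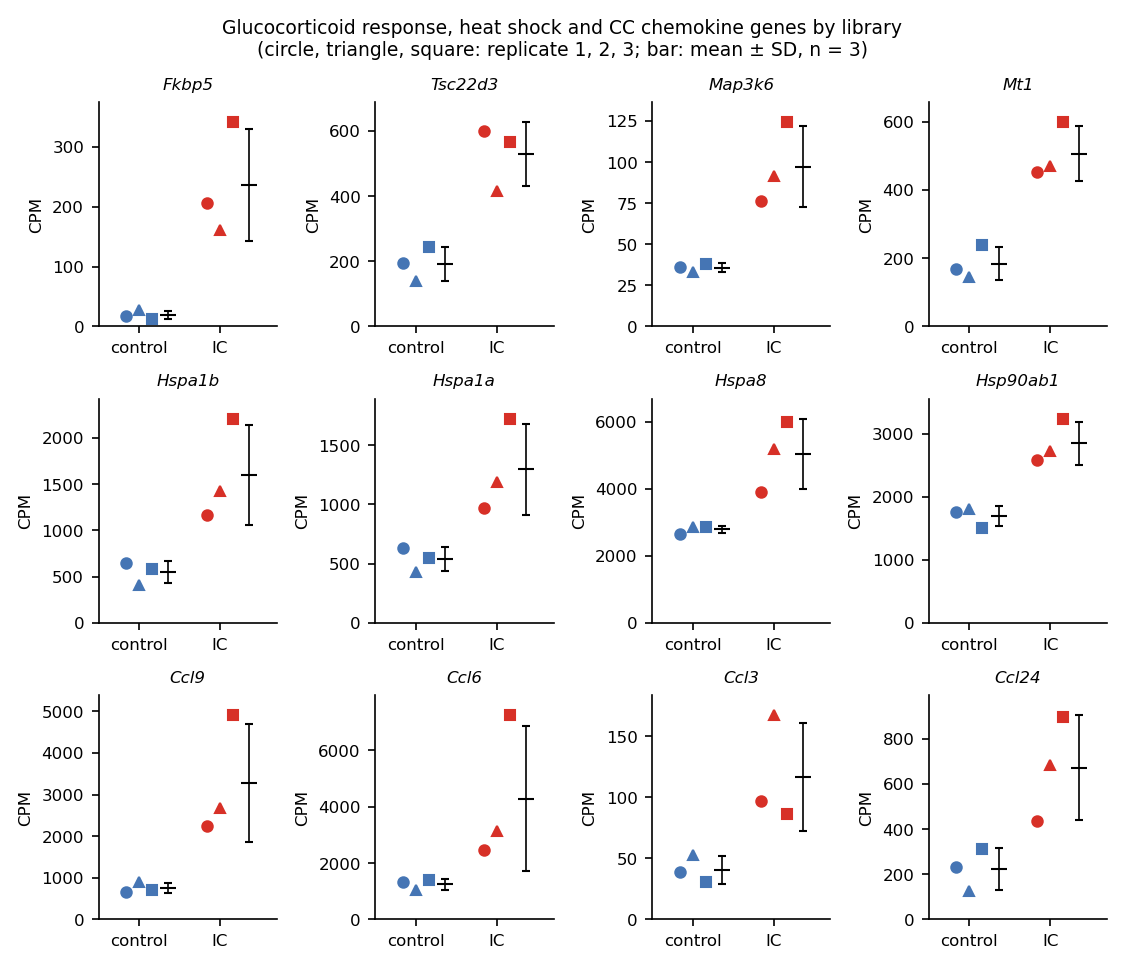
CPM of 12 called genes in each control library (blue) and IC library (red), with circles, triangles and squares for replicates 1, 2 and 3 and a bar for the mean ± SD (n = 3), on axes that start at 0. The top row holds glucocorticoid response genes, the middle row heat shock genes and the bottom row CC chemokines. In every panel the 3 IC libraries lie above the 3 controls, and IC library 3 is the highest in 10 of the 12 panels.

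Fc receptors are the entry point of IC into macrophages, and 1 of 7 rose. Fcer1g, the gamma chain shared by the activating receptors, had 216, 197 and 260.5 CPM in controls and 398, 442 and 494 after IC, with no overlap (0.99 ± 0.18 log2 units, adjusted p = 0.00612, lost under 2 of 17 alternatives and up to 0.06). Fcgr1, the high-affinity receptor, had 132, 76.0 and 140.4 CPM and then 226, 324 and 299.7 (1.29 ± 0.52, adjusted p = 0.417). Fcgr4 had 3.84, 4.95 and 1.34 CPM and then 14.4, 29.2 and 28.6 (2.79 ± 1.02, adjusted p = 0.298). Both had each IC library above each control, as had 8.72% of all genes tested, but were not called. Fcgr3, a low-affinity activating receptor, had 0.15 ± 0.16 (adjusted p = 0.875). Among 25 genes of Fc receptor signalling none was called. The smallest p belonged to the adaptor Lcp2 (0.58 ± 0.16, adjusted p = 0.105) and the exchange factor Vav3 (0.74 ± 0.22, adjusted p = 0.16), both with no overlap of groups.

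Type I interferon-stimulated genes encode antiviral proteins and sensors. Of 29 tested, 28 had a fold change above 0 (median 0.94) and 3 were called. In 14 of them each IC library was above each control, against 8.72% of all genes tested. Ifi27l2a, a small mitochondrial protein gene, had 209.7, 169 and 220.3 CPM in controls and 496, 622 and 1034 after IC (1.85 ± 0.29 log2 units, adjusted p = 0.00406). Zbp1, a nucleic acid sensor that can start cell death, had 92.8, 68.2 and 62.9 CPM and then 134, 159.5 and 229 (1.22 ± 0.28, adjusted p = 0.0416). Oas1a, which makes the signal that activates RNase L, had 54.8, 36.9 and 43.8 CPM and then 67.4, 102 and 157 (1.27 ± 0.30, adjusted p = 0.0488). IC library 3 was the highest for all 3 genes. The call of Ifi27l2a held under all 17 alternatives, while those of Zbp1 and Oas1a were lost under 9 and 12 and reached 0.349 and 0.444 without IC library 3. Irf7, the factor that amplifies the interferon response, had 137, 59.4 and 117 CPM and then 190.2, 262 and 407 (1.46 ± 0.35, adjusted p = 0.0752) and Ifit1 63.1, 10.2 and 28.8 and then 76.9, 111 and 106 (1.53 ± 0.42, adjusted p = 0.109). Neither overlapped and neither was called. For both genes control library 2 was the lowest. Of 14 interferon-inducible GTPases none was called (median 0.536), with Igtp at 0.92 ± 0.38 (adjusted p = 0.382) and Irgm1 at 0.53 ± 0.23 (adjusted p = 0.433).

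The window of Oas1a (chr5:120907476-120907775, minus strand) is shown because it holds a motif to which interferon-regulated factors bind. The letters GAAA, any 2 bases and GAAA again, searched on both strands, occur in 3.44% of windows. Windows of Ifi27l2a and Zbp1 were not matched in the table.
Oas1a: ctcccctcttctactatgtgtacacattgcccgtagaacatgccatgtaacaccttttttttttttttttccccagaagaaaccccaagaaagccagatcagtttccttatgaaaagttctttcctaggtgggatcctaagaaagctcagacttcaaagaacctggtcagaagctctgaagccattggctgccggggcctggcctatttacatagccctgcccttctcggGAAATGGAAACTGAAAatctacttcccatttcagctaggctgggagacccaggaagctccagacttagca
The capitals mark 2 overlapping matches, which start 20 and 14 bases before the gene start.

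The Ms4a family encodes membrane proteins with 4 spans, several of them typical of macrophages, in a cluster on chromosome 19. The list named after it also held Tmem176a and Tmem176b, which are not Ms4a genes but count among its 11 members and in its median of 1.58. Ms4a6c had 67.0, 71.8 and 69.2 CPM in controls and 188, 143 and 289 after IC (1.58 ± 0.23 log2 units, adjusted p = 0.000956). Ms4a4a had 77.0, 36.4 and 52.5 CPM and then 211, 180.1 and 313 (2.08 ± 0.35, adjusted p = 0.00446). Ms4a6d had 86.6, 93.3 and 58.5 CPM and then 374, 309 and 423 (2.21 ± 0.36, adjusted p = 0.00707). For these 3 genes the groups stood far apart, and IC library 2 was the lowest and IC library 3 the highest after IC. The further members, Ms4a6b (88.3, 56.2 and 107 CPM and then 216, 241 and 373) and Ms4a4c, had log2 fold changes of 1.73 ± 0.58 and 1.64 ± 0.53 that were not called (adjusted p = 0.286 and 0.205). Ms4a7 had 0.03 ± 0.58, Ms4a14 −0.08 ± 0.44 and Tmem176b −0.14 ± 0.27, with overlapping groups. Reads of the closely related Ms4a6 genes may be shared, which the table cannot resolve.

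Heme and oxidant defence was read next. Hmox1, which breaks down heme, had 637, 453 and 669 CPM in controls and 919.7, 1041 and 1220 after IC (0.85 ± 0.17 log2 units, adjusted p = 0.0153). Fth1, the ferritin heavy chain that stores iron, had 1702, 1608 and 1552 CPM and then 3053, 2680 and 2808 (0.81 ± 0.15, adjusted p = 0.00612). Prdx1, a peroxidase, had 167, 193 and 162 CPM and then 318, 333 and 346 (0.93 ± 0.20, adjusted p = 0.0264). In all 3 the lowest IC library was above the highest control. Sod2, the mitochondrial superoxide dismutase, which is also an NF-kappaB target, had 62.3, 96.1 and 61.9 CPM and then 139.7, 118 and 186 (1.01 ± 0.21, adjusted p = 0.0162). Of 20 Nrf2 and oxidative stress genes 3 rose and none fell, of 19 iron and heme genes 2 rose and none fell (median 0.114), and of 20 NF-kappaB pathway genes Sod2 alone was called (median −0.0978). Calls of Hmox1, Fth1, Prdx1 and Sod2 were lost under 6, 3, 6 and 5 of 17 alternatives. The heme receptor gene Cd163 had 0.62 ± 0.22 (adjusted p = 0.261) and was not called.

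Single members of other lists rose. Mmp19, a matrix metalloproteinase, had 43.9, 27.7 and 22.7 CPM in controls and 191, 227 and 329.9 after IC (2.98 ± 0.53 log2 units, adjusted p = 0.0204, but 0.275 with the replicate number as a block). Vcam1, an adhesion molecule that binds integrins of leukocytes, had 2.77, 7.07 and 8.02 CPM and then 25.3, 41.4 and 64.4 (2.88 ± 0.68, adjusted p = 0.0461, lost under 10 of 17 alternatives). Axl, a receptor for the uptake of dying cells, had 119.9, 153 and 127 CPM and then 274, 229 and 229.8 (0.87 ± 0.20, adjusted p = 0.0329). Each of these 3 had all IC libraries above all controls. Plin2, which coats lipid droplets, had 187, 262 and 198 CPM and then 369, 460.0 and 403 (0.93 ± 0.22, adjusted p = 0.0488). Cacna1d, a subunit of L-type calcium channels, had 32.0, 31.1 and 20.4 CPM and then 104, 145 and 178 (2.34 ± 0.30, adjusted p = 0.000262). Sdc4, a heparan sulfate proteoglycan of the cell surface, had 178, 189.8 and 145 CPM and then 533, 628 and 668 (1.83 ± 0.22, adjusted p = 0.000125). Of the 6 genes Cacna1d and Sdc4 were called under all alternatives. Their lists held few other calls, with 1 of 20 matrix proteases and inhibitors (median 0.503), 1 of 23 integrin and adhesion genes (0.193), 1 of 20 efferocytosis genes (0.106), 1 of 24 lipid handling genes (0.116), 2 of 23 calcium genes (−0.129) and 2 of 26 syndecans and glycan enzymes (−0.0254), where 1 of the 2 calls in each of the last 2 lists was lower.

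Outside the lists, several transcription and metabolic genes were among the smallest p, and their calls held under all 17 alternatives. Jdp2, a repressor of the AP-1 family, had 48.2, 45.6 and 58.2 CPM in controls and 171, 142 and 278 after IC (1.96 ± 0.27 log2 units, adjusted p = 0.000419). Cebpb, a factor of inflammatory gene expression in macrophages, had 159.7, 179.5 and 166 CPM and then 423, 340.1 and 376 (1.17 ± 0.18, adjusted p = 0.00111). Fgl2, an immune regulator related to fibrinogen, had 49.5, 86.6 and 85.9 CPM and then 256, 229.7 and 183 (1.59 ± 0.22, adjusted p = 0.000526). The 3 genes differed in which IC library was highest, library 3 for Jdp2 and library 1 for the others. Immediate early genes, which are switched on within minutes, held no call among 25 (median −0.0289), with Dusp1 given above and Egr2 at −0.72 ± 0.25 (adjusted p = 0.264).

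Others of the smallest p among the higher genes act in the cell cycle, in metabolism and at the membrane. Wee1, a kinase that delays mitosis, had 18.1, 14.8 and 13.4 CPM in controls and 92.0, 45.9 and 47.9 after IC (2.00 ± 0.30 log2 units, adjusted p = 0.000956). Ucp2, a carrier of the inner mitochondrial membrane, had 727, 816 and 657 CPM and then 1457, 1232 and 1600 (0.96 ± 0.15, adjusted p = 0.0011). Por, which passes electrons to cytochrome P450 enzymes, had 75.1, 69.5 and 72.5 CPM and then 189, 206 and 173 (1.39 ± 0.21, adjusted p = 0.00137). In these 3 the lowest IC library stood clearly above the highest control. Gda, which breaks down guanine, had 373, 301 and 387 CPM and then 675, 775 and 1017 (1.22 ± 0.19, adjusted p = 0.00195). Kcnk13, a potassium channel, had 49.7, 62.0 and 27.4 CPM and then 126, 110.2 and 176 (1.56 ± 0.25, adjusted p = 0.00195). The calls of these 5 genes held under all 17 alternatives. Wfdc17, which encodes a small secreted protein, had 88.9, 96.7 and 84.9 CPM and then 192, 189 and 348 (1.43 ± 0.25, adjusted p = 0.00406) and lost its call without IC library 3 alone.

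Further called genes fell into a few kinds of function, which were grouped after the values were seen. Of genes of the actin cytoskeleton and of endocytosis, Arpc3 (0.72 ± 0.15 log2 units), a subunit of the Arp2/3 complex, the actin binder Pfn1 (0.80 ± 0.17), the clathrin light chain gene Cltb (1.14 ± 0.23) and Ehd1 (0.83 ± 0.16), which returns receptors to the surface, were higher (adjusted p = 0.0153, 0.0234, 0.0153 and 0.0104). Of enzymes that process N-glycans in the Golgi, Man2a1 (1.05 ± 0.21) and Mgat2 (0.93 ± 0.19) were higher (adjusted p = 0.014 and 0.018). Man2a2, the relative of Man2a1, was lower (−1.19 ± 0.27, adjusted p = 0.0362). Man2a1 had 189, 153 and 182 CPM in controls and 358, 297 and 428 after IC, while Man2a2 had 123.3, 81.5 and 141 and then 51.7, 41.0 and 58.6. Of genes of membrane lipids, Cers2, a ceramide synthase, had 1.06 ± 0.20, Cept1, which makes phospholipids, 1.14 ± 0.27 and Pitpna, which carries phosphatidylinositol, 0.82 ± 0.17 (adjusted p = 0.00869, 0.046 and 0.0178). Clec4d, a C-type lectin receptor that signals with the Fc receptor gamma chain, had 6.40, 14.5 and 15.1 CPM and then 59.2, 42.2 and 52.6 (2.10 ± 0.50, adjusted p = 0.05). Slc39a14, a zinc and iron importer, had 16.4, 31.3 and 11.7 CPM and then 64.1, 53.1 and 71.0 (1.64 ± 0.33, adjusted p = 0.0153). Both had no overlap, and the kinases Wnk1 (0.86 ± 0.17, adjusted p = 0.0153) and Sik1 (0.75 ± 0.17, adjusted p = 0.0318), the ubiquitin-binding protein gene N4bp1 (1.31 ± 0.23, adjusted p = 0.00413) and the tetraspanin gene Cd53 (0.74 ± 0.17, adjusted p = 0.0318) were higher as well.

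Saa3, an acute phase protein gene, was nearly absent before IC. It had 2 counts over the 3 controls and 391 after IC, at 14.4, 12.8 and 72.7 CPM, a ratio of 201 (exact 95% interval 55.2 to 1660, counting error only; adjusted p = 0.0251). IC library 3 was far above the others, and without it the adjusted p was 0.268.

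A group of genes for the making and folding of proteins was noticed among the calls after their values were seen, so it is a description. From the calls 10 genes, all higher, were picked that act in ribosome assembly, translation or polyamine synthesis. They are Ddx21, Noc2l, Mybbp1a, Polr1a, Pa2g4, C1qbp, Eif5a, Eif3b, Mrpl52 and Srm, with log2 fold changes from 0.737 to 2.48. Genes of these functions that were not called were not counted. Polr1a, the largest subunit of RNA polymerase I, had 32.2, 29.9 and 29.1 CPM in controls and 58.5, 71.1 and 113 after IC (1.41 ± 0.32 log2 units, adjusted p = 0.0316). Pa2g4, a nucleolar protein, had 39.2, 50.5 and 39.8 CPM and then 106, 106 and 97.1 (1.25 ± 0.21, adjusted p = 0.00368), and its call held under all alternatives. Srm, spermidine synthase, had 4.27, 10.96 and 2.34 CPM and then 29.7, 29.5 and 42.1 (2.48 ± 0.50, adjusted p = 0.0152). Control library 2 was the highest control for Pa2g4 and Srm. All 8 subunits of the cytosolic chaperonin were above 0 (median 0.581), of which Cct2 (0.93 ± 0.20, adjusted p = 0.0196) and Cct3 (1.04 ± 0.20, adjusted p = 0.012) were called. Proteasome subunits Psmc1 (1.33 ± 0.24, adjusted p = 0.0057) and Psmd1 (0.96 ± 0.21, adjusted p = 0.0264) were called too. The share of called genes among all proteasome subunits was not counted.

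The products of MHC class II genes present peptides to T cells. Of 13 presentation genes 11 had a fold change below 0, but only Ciita passed the test. In 9 of the 13 each IC library was under each control, against 8.48% of all genes tested. Ciita (chr16:10480059-10528418, plus strand), the coactivator that switches on class II genes, had 214, 165 and 242 CPM in controls and 65.0, 84.1 and 42.4 after IC, and fell (−1.69 ± 0.35 log2 units, adjusted p = 0.0316). The classical chain H2-Ab1 had 3883, 4307 and 4158 CPM and then 2654, 2852 and 2821 (−0.57 ± 0.27, adjusted p = 0.49). H2-DMb1, part of the peptide loader H2-DM, had 189.8, 195 and 192 CPM and then 102, 100.5 and 85.6 (−1.002 ± 0.34, adjusted p = 0.255). In both the groups were narrow and far apart relative to their spread, yet neither was called. The fit took the spread of each gene from all 17 libraries, not from these 6 alone. H2-Eb1, H2-Aa and Cd74, the invariant chain gene, had −0.62 ± 0.19, −0.53 ± 0.35 and −0.55 ± 0.26 (adjusted p = 0.187, 0.714 and 0.501). Cells were sorted on the class II protein, so the level per cell and the choice of cells by the gate cannot be told apart. H2-Eb1 was called under 1 of 17 alternatives, limma-voom with sample weights, with adjusted p from 0.0161 to 0.505 over them. The call of Ciita was lost under 6 of 17 alternatives, with adjusted p between 0.0798 and 0.187 without IC library 1, control library 1, control library 3 or IC library 3, and 0.261 with the replicate block.

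Some of the other genes that fell are also expressed in B cells or dendritic cells, which carry class II too. Irf4, a transcription factor of both and of some macrophages, had 127, 130.2 and 96.0 CPM in controls and 47.2, 70.9 and 44.6 after IC (−1.12 ± 0.23 log2 units, adjusted p = 0.0169). Siglecg, an inhibitory lectin of B cells, had 5.97, 1.94 and 22.1 CPM and then 0.443, 1.24 and 0 (−3.98 ± 0.90, adjusted p = 0.0323). Cbfa2t3, a corepressor, had 171, 104 and 197 CPM and then 47.5, 50.3 and 61.4 (−1.57 ± 0.31, adjusted p = 0.018). The 6 B cell markers summed to 375, 127 and 312 CPM in controls and 70.1, 141 and 108 after IC, mostly Ighm (333, 115 and 269.8 and then 69.6, 123.4 and 99.1). The 8 dendritic cell markers are given above, with Cd209a as the largest part. Flt3 had 15.8, 6.36 and 18.7 CPM in controls and 2.88, 4.53 and 1.38 after IC, while Zbtb46 and Siglech overlapped. Control library 2 had the lowest sums of both among the controls, and its B cell sum lay within the range of the IC libraries. The calls of Irf4, Siglecg and Cbfa2t3 were lost under 4, 7 and 6 of 17 alternatives, of which the fit on the 6 libraries alone did not test Siglecg. When each of the 6 libraries was left out in turn, Siglecg and Cbfa2t3 were called in 1 of the 6 fits, the one without control library 2 (adjusted p = 0.00851 and 0.00454), and otherwise had adjusted p of 0.0549 to 0.348 and 0.073 to 0.116. Irf4 lost its call in 3 of these fits (adjusted p from 0.0141 to 0.167 over all) and Ciita in 4 (from 0.022 to 0.187). The part of B and dendritic cells in these values was not tested.

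**Figure D4:**
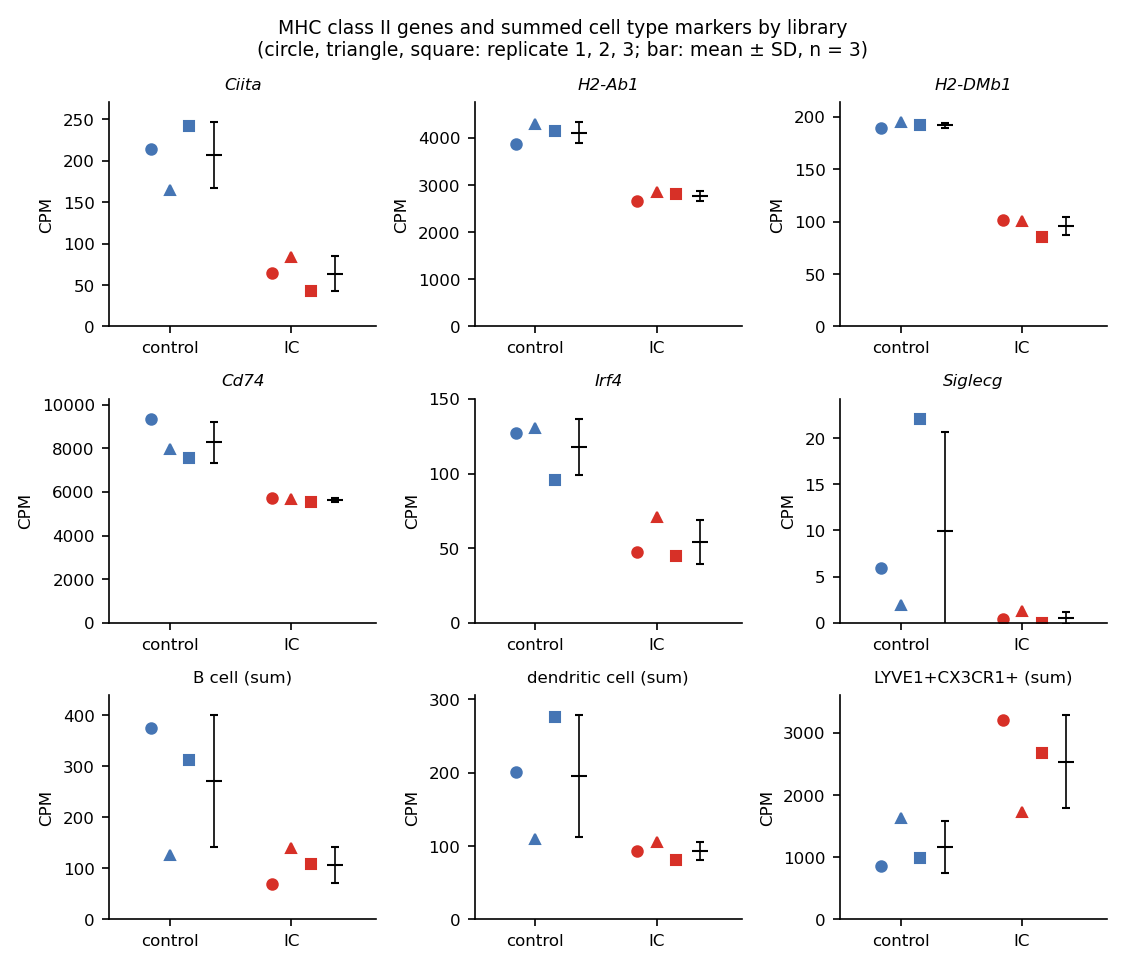
CPM of 6 genes and summed CPM of the markers of B cells, dendritic cells and LYVE1+CX3CR1+ macrophages in each control library (blue) and IC library (red), with circles, triangles and squares for replicates 1, 2 and 3 and a bar for the mean ± SD (n = 3, cut off at 0). Ciita, H2-Ab1, H2-DMb1, Cd74 and Irf4 are lower in every IC library, and the B cell sum of control library 2 (127) lies between those of the IC libraries (70.1 to 141).

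Other genes that fell act in membrane traffic, the cytoskeleton and mitochondria. Snx29, a sorting nexin, had 163, 139 and 150.1 CPM in controls and 42.8, 48.4 and 35.5 after IC (−1.83 ± 0.31 log2 units, adjusted p = 0.00368). Cmah, which makes the sialic acid Neu5Gc, had 153, 91.4 and 143 CPM and then 45.2, 54.4 and 41.3 (−1.46 ± 0.25, adjusted p = 0.00368). Syne2, which links the nucleus to the cytoskeleton, had 127, 158 and 125 CPM and then 70.5, 61.6 and 61.4 (−1.08 ± 0.18, adjusted p = 0.00368). These were the 3 lower calls that held under all 17 alternatives, with adjusted p of up to 0.0491, 0.0432 and 0.037. Pink1, a kinase that marks damaged mitochondria for removal, had 88.3, 84.1 and 102 CPM and then 45.7, 40.0 and 30.3 (−1.24 ± 0.23, adjusted p = 0.00696). Of 25 autophagy and mitophagy genes Pink1 alone was called, 18 were below 0 and the median was −0.311, with Ulk1, the kinase that starts autophagy, at −0.54 ± 0.20 (adjusted p = 0.303). Of 15 nuclear envelope and cytoskeleton linkers, Syne2 alone was called (median −0.158).

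Mctp1, a calcium-binding membrane protein gene, had 141, 102 and 169 CPM in controls and 51.9, 64.1 and 39.1 after IC (−1.41 ± 0.26 log2 units, adjusted p = 0.00814, lost under 2 of 17 alternatives). Sft2d2, which acts in transport through the Golgi, had 229.5, 185 and 264 CPM and then 126, 112 and 92.5 (−1.04 ± 0.21, adjusted p = 0.014). Kbtbd11 had 106, 90.7 and 79.2 CPM and then 45.5, 34.2 and 25.6 (−1.39 ± 0.28, adjusted p = 0.0147). Mamdc2 had 135, 178 and 86.3 CPM and then 63.0, 49.6 and 53.9 (−1.26 ± 0.26, adjusted p = 0.0154). None of these 4 genes had overlapping groups, as was so for every called gene. The calls of Sft2d2, Kbtbd11 and Mamdc2 were lost under 4, 3 and 4 of 17 alternatives (adjusted p up to 0.135, 0.144 and 0.108). Utrn, which encodes utrophin, had −1.03 ± 0.22 (adjusted p = 0.0252). P3h2, which modifies collagen, had 63.1, 61.5 and 68.2 CPM and then 19.3, 21.2 and 5.78 (−2.05 ± 0.48, adjusted p = 0.0472). Hepacam2 had 14.1, 2.47 and 6.02 CPM and then 1.33, 0.824 and 0.826 (−2.88 ± 0.59, adjusted p = 0.0165). In both, control and IC libraries were apart, but the levels of Hepacam2 were near the limit of detection. The call of Hepacam2 was lost under 6 of 17 alternatives (adjusted p up to 0.215).

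Cox7a2l, which acts in the assembly of respiratory complexes, fell too (−1.18 ± 0.26, adjusted p = 0.0251), as did Txndc16 (−1.30 ± 0.28, 0.0267), Niban1 (−1.05 ± 0.22, 0.018) and Apba1 (−1.003 ± 0.22, 0.0251), where the log2 fold change ± SE is followed by the adjusted p. Ppp1r16b, a regulator of protein phosphatase 1, had 95 counts over the 3 controls (13.4, 1.77 and 7.36 CPM) and 3 after IC (0.222, 0.206 and 0.275 CPM), a ratio of 30.9 (exact 95% interval 10.2 to 152, counting error only; adjusted p = 0.0147). Ngfr, a neurotrophin receptor, had 0 counts in all IC libraries and 0.640, 3.36 and 5.01 CPM in controls, at least 4.27-fold lower against a floor of 3 counts per library (adjusted p = 0.0169). Both calls were lost under limma-voom with sample weights (adjusted p = 0.129 and 0.123). Kif23 (−1.48 ± 0.34, adjusted p = 0.0335) and Cenpf (−3.27 ± 0.73, adjusted p = 0.0482), which act in cell division, fell. Of 23 genes of the cell cycle list, which holds neither of them, 19 were below 0 (median −0.337) and none was called. Its smallest p belonged to the proliferation marker Mki67, with 163, 228 and 76.6 CPM and then 87.1, 63.2 and 51.5 (−1.21 ± 0.34, adjusted p = 0.132).

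The remaining lists held no called gene, at a background of 0.701%, and the log2 fold change ± SE and the adjusted p of the members named follow in parentheses. MHC class I genes (15 tested, median 0.258) had the smallest p in Calr, a chaperone of the loading complex (0.49 ± 0.16, adjusted p = 0.204), and B2m, the light chain (0.46 ± 0.19, 0.391). H2-T22, a non-classical class I gene that was not in this list and has near-identical relatives, was called higher (1.06 ± 0.25, adjusted p = 0.0421). Interstitial macrophage markers (12 tested, median −0.421) were led by the lectins Mgl2 (−0.83 ± 0.32, 0.337) and Cd209a (−1.08 ± 0.49, 0.49), and lining macrophage markers (11 tested, median 0.201) by Cd163 and Timd4 (0.65 ± 0.30, 0.482). Lyve1 had 695, 1131 and 729.5 CPM in controls and 2337, 1455 and 2458 after IC, higher in each IC library but not called (1.29 ± 0.82, adjusted p = 0.7, from 0.0352 on the 6 libraries alone to 0.988 without control library 3). General macrophage markers (15 tested, median 0.433) had 7 members with each IC library above each control, against 8.72% of all genes tested. Itgam, which encodes CD11b, was 1 of them (0.67 ± 0.18, 0.105), and Cd14 had 0.67 ± 0.21 (0.187).

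Inflammatory cytokines were among these lists. Of 20 cytokine and antagonist genes, 10 were above and 10 below 0 (median 0.00245). Il12b, the p40 subunit of IL-12, had 2.99, 1.06 and 4.01 CPM in controls and 0 counts in the 3 IC libraries, at least 3.82-fold lower against the floor but not called (adjusted p = 0.195), and Tgfb1 had −0.35 ± 0.14 (0.365). Toll-like receptor genes (22 tested, median 0.175) were led by Tlr13, a sensor of bacterial RNA (1.51 ± 0.41, 0.121). Complement genes (19 tested, median 0.305) were led by Cd55, which limits complement at the cell surface (1.85 ± 0.69, 0.303). The list of the unfolded protein response (21 tested, median 0.258) had the smallest p in Pdia4 (0.54 ± 0.16, 0.162) and Ern1 (−0.48 ± 0.19, 0.356). Lysosomal genes (27 tested, median 0.0965) were led by Ctsz (0.57 ± 0.18, 0.202) and Hexa (−0.52 ± 0.19, 0.279), and glycolysis and hypoxia genes (23 tested, median −0.0273) by Hif1a (0.61 ± 0.17, 0.117) and Pkm (0.76 ± 0.33, 0.454). Ramp1, part of the receptor for the neuropeptide CGRP, had 10.9, 13.96 and 24.1 CPM in controls and 4.88, 3.09 and 1.10 after IC. Its groups did not overlap, with each IC library below each control as in 8.48% of all genes tested. At an adjusted p of 0.0533 (−2.38 ± 0.58 log2 units) Ramp1 was just outside the threshold. It was called under 5 of 17 alternatives, with adjusted p from 0.000716 by DESeq2 to 0.309 without IC library 3. Ramp1 stood in a list of 9 neuropeptide and adrenergic receptors (median 0.204), in which Adra2a had 22 counts in controls and 1 after IC, a ratio of 21.4 (exact 95% interval 3.47 to 885; adjusted p = 0.255).

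The same genes were then set beside the other 2 subsets, each with its own controls. Of the 107 genes, 21 were also called in the same direction among the 147 called in LYVE1+CX3CR1+ macrophages (0.963% of genes), 10 among the 33 called in MHCII+CD11c+ macrophages (0.216%) and 79 in neither. A call in 1 subset and not in another does not show that they differ, so the difference of the responses was tested. Against LYVE1+CX3CR1+ macrophages 4 of 15272 genes were called (0.0262%), 3 with a higher response (0.0196%) and 1 with a lower one (0.00655%), and 1152 had an unadjusted p under 0.05 (7.54%). Against MHCII+CD11c+ macrophages, with 2 IC libraries, edgeR called 0, while 496 had an unadjusted p under 0.05 (3.25%) and DESeq2 called 2.

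Sdc4 was the called gene of these 4 with substantial levels in all subsets. In LYVE1+CX3CR1+ macrophages it had 69.6, 107 and 64.5 CPM in controls and 98.0, 80.6 and 70.9 after IC, with overlapping groups. In MHCII+CD11c+ macrophages it had 147, 196 and 109.7 CPM in controls and 356 and 354 in its 2 IC libraries. The response of Sdc4 in MHCII+CD11c- macrophages exceeded that in LYVE1+CX3CR1+ macrophages by 1.78 ± 0.31 log2 units (adjusted p = 0.0291), a call that was lost under 6 of 17 alternatives, and that in MHCII+CD11c+ macrophages by 0.60 ± 0.32 (adjusted p = 1). The other 3 genes, H2-Eb1, Tgtp2 and Runx3, rested on LYVE1+CX3CR1+ groups with few counts. Runx3 had 17.9, 7.60 and 12.0 CPM in MHCII+CD11c- controls and 16.6, 15.9 and 16.8 after IC, with overlapping groups.

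For the lists with calls, fold changes in the 3 subsets are given side by side. Fkbp5 had 3.61 ± 0.36 log2 units in MHCII+CD11c-, 3.40 ± 0.36 in LYVE1+CX3CR1+ and 2.32 ± 0.36 in MHCII+CD11c+ macrophages. Map3k6 had 1.44 ± 0.25, 2.04 ± 0.26 and −0.42 ± 0.27, and its difference from MHCII+CD11c+ macrophages, 1.86 ± 0.37, was among the nearest to a call (adjusted p = 0.315). Per2 had 1.24 ± 0.27, 1.13 ± 0.27 and 1.35 ± 0.30, so the values of this clock gene differed by less than their SE. Ccl3 had 1.52 ± 0.30, −0.15 ± 0.29 and 1.10 ± 0.32, and Ccl24 1.59 ± 0.32, −0.40 ± 0.32 and 1.30 ± 0.36. Hmox1 had 0.85 ± 0.17, −0.05 ± 0.17 and 0.93 ± 0.19. These 3 genes had values near or below 0 in LYVE1+CX3CR1+ macrophages, but the differences from them, 1.67 ± 0.42, 2.00 ± 0.45 and 0.90 ± 0.24, were not called (adjusted p = 0.234, 0.223 and 0.326). Median fold changes of the interferon-stimulated genes were 0.94 in MHCII+CD11c-, 0.0086 in LYVE1+CX3CR1+ and 1.21 in MHCII+CD11c+ macrophages, and those of CC chemokines 1.52, −0.405 and 0.958.

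**Figure D5:**
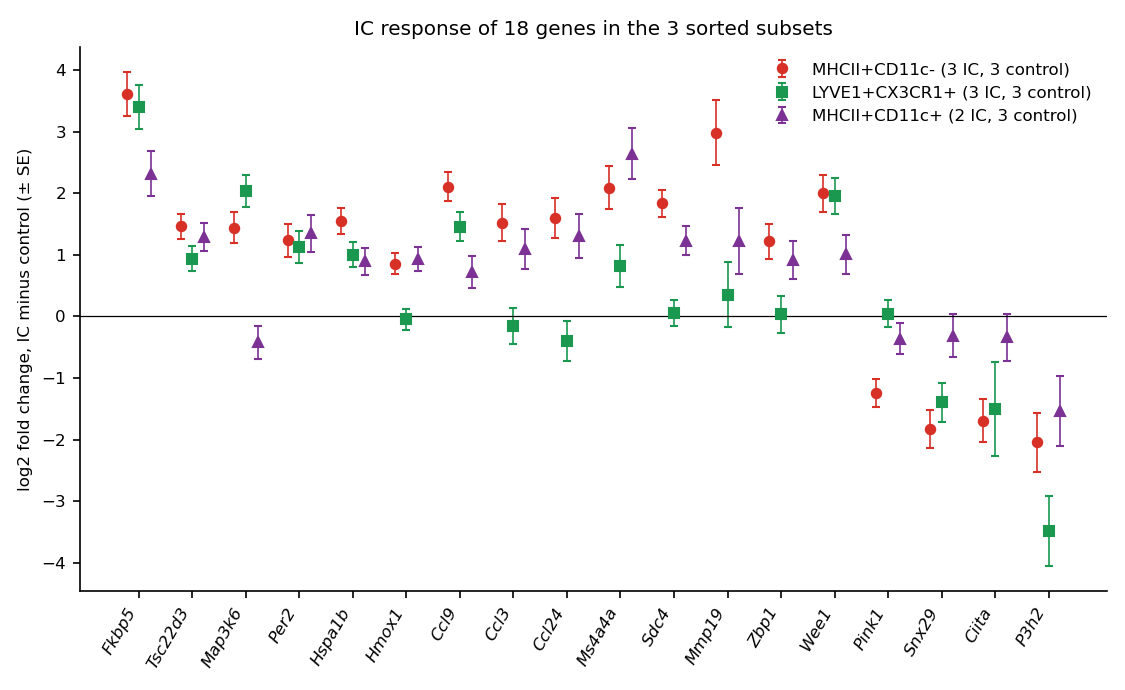
Log2 fold change after IC ± SE (vertical axis) of 18 genes in MHCII+CD11c- (red circles, 3 IC and 3 control libraries), LYVE1+CX3CR1+ (green squares, 3 and 3) and MHCII+CD11c+ macrophages (purple triangles, 2 and 3). Fkbp5, Tsc22d3, Per2 and Wee1 lie above 0 in all subsets, whereas Sdc4, Ccl3, Ccl24 and Hmox1 lie near or below 0 in LYVE1+CX3CR1+ macrophages. Of the 18 genes Sdc4 alone passed the test of the difference.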

How the data were processed

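Synovial macrophage subsets were sorted after collagenase digestion, and 5 ng of RNA per library went into the SMARTer Stranded Total RNA-Seq Pico kit and paired-end sequencing. By the submitters' processing notes and the methods, the authors trimmed reads with Trim Galore, used HISAT2 for alignment to mm10 and featureCounts for counting by gene, and deposited these raw counts for each library. Versions, and whether counting used the strand, are not given in the sources used here. Of the joint table, 1 column matched no sample and was not used.

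From the deposited counts, genes with enough counts in a group (filterByExpr, minimum count 10) were kept, which left 15272 of 22859. The 17 libraries were fitted together, with 1 mean per group (6 groups), in edgeR 4.0.16 (TMM scaling, robust quasi-likelihood, 11 residual degrees of freedom) in R 4.3.3. Adjusted p are Benjamini-Hochberg values over all genes tested, with calls under 0.05. Differences between subsets were tested as interactions. Alternatives were DESeq2 1.42.0, limma 3.58.1 (voom with sample weights), sva 3.50.0 (5 surrogate variables), other scalings and filters, equal depth, a length offset, the replicate number as a block, the compared libraries alone and each of the 6 MHCII+CD11c- libraries left out. The pipeline was tested on simulated data. Gene positions were taken from GENCODE M21 (GRCm38), with 97.5% of symbols matched, and promoters are those of RefSeq.

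The members, gene lists and marker lists were chosen with earlier results of these data known. Values in every library are given for the 20 higher and the 10 lower called genes of smallest p without overlap, and for each called list member. Of lists without a call the 2 members of smallest p are named, and of each interaction up to 5 called genes. Other genes were named after their values were seen. Predicted gene models were counted only. A count of 0 was read against a floor of 3 counts per library, and intervals and floors cover counting error only.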

Additional observations from a re-analysis of the deposited data

Results flagged for a closer look

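The response to IC differed between MHCII+CD11c- and LYVE1+CX3CR1+ macrophages by the interaction test of edgeR in 4 genes, given here with both subsets. For H2-Eb1, a class II chain, the difference was 7.002 log2 units (adjusted p = 0.000367), with 2249, 1938 and 2285 CPM in MHCII+CD11c- controls and 1325, 1412 and 1463 after IC. LYVE1+CX3CR1+ macrophages, in which this gene was scarce, had 3.78, 4.59 and 7.54 CPM in controls and 0 counts in the 3 IC libraries, at least 5.19-fold lower against a floor of 3 counts per library. Since those libraries are at 0, the fitted difference depends on the prior count and is no bound. Class II protein was part of the gates that define the subsets.

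For Tgtp2, an interferon-inducible GTPase with a near-identical copy, Tgtp1, the difference was 4.72 (adjusted p = 0.0116). MHCII+CD11c- macrophages had 44.8, 39.4 and 28.1 CPM in controls and 49.4, 77.9 and 72.1 after IC, whereas LYVE1+CX3CR1+ macrophages had 8.51, 6.22 and 5.86 and then 1.17, 0 and 0. For Sdc4 the difference was 1.78 (adjusted p = 0.0291), with the values of each library given above. For Runx3, a transcription factor of lymphocytes and some myeloid cells, it was −4.47 (adjusted p = 0.0415). LYVE1+CX3CR1+ macrophages had 0.158, 0 and 0.419 CPM in controls and 4.10, 14.5 and 3.32 after IC. The calls were lost under 1 (H2-Eb1), 3 (Tgtp2), 6 (Sdc4) and 9 (Runx3) of 17 alternatives, and limma-voom with sample weights called none of the 4, with adjusted p of 0.647, 0.445, 0.261 and 0.419.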

How the results depend on the processing

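The count of 107 genes called after IC was 37 at an adjusted p under 0.01, 71 in the fit on the 6 libraries alone (56 shared), 168 by limma-voom with sample weights, 255 with 5 surrogate variables (144 higher, 111 lower; 98 shared) and 287 by DESeq2 (107 shared). Leaving out 1 MHCII+CD11c- library gave 29 to 173. DESeq2 size factors, library totals, no filter, a minimum count of 30, equal depth and a length offset gave 84 to 136, within 1.5 times. Library totals without scaling moved the median of all genes to −0.11 log2 units from −0.03 and the split to 55 higher and 29 lower. Libraries with the same number did not vary together (correlations of −0.0479, −0.0537 and 0.0817 between control and IC), so they were not taken to pair these groups, and with the replicate block 86 genes were called (66 higher, 20 lower; 75 shared). Across subsets of 1 treatment the same-number correlations were all above 0 (0.00129 to 0.286), not all over 0.1, a hint from the data that numbers may tie subsets, which the labels do not say and the joint fit leaves out. The 4 calls of the difference from LYVE1+CX3CR1+ macrophages became 1 at an adjusted p under 0.01, 2 with a minimum count of 30, 7 in the fit on the 12 libraries compared, 10 with the replicate block, 38 by DESeq2, 172 with surrogate variables and 0 by limma-voom (1087 at an unadjusted p under 0.05), and 1 to 6 with 1 MHCII+CD11c- library left out. No library of the other subsets was left out. For the difference from MHCII+CD11c+ macrophages DESeq2 called 2 genes and no other setting any. No value given changed its direction where it was called. Over 152 values of named genes and their alternatives, 2128 kept their side of the threshold, 575 lost a call and 27 gained one.

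With 3 libraries in each group, 5 ng of RNA and 2886696 to 5804056 counts per library, small changes and low genes are at the limit of the test, and a gene that was not called is not shown to be unchanged. The controls were Fcgr2b-KO mice too, so these data do not say how mice with Fcgr2b respond. Mitochondrial genes took 6.80% to 11.9% of counts in controls and 8.24% to 12.2% after IC.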

Other observations

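Some genes varied between libraries without following the groups. Vsig4, a complement receptor of tissue macrophages, had 29.0, 306 and 22.4 CPM in control libraries 1, 2 and 3 and 542, 144 and 28.3 in IC libraries 1, 2 and 3. Vcan, a matrix proteoglycan, had 18.8, 107 and 8.02 CPM and then 181, 43.9 and 64.1, and Cspg4, another proteoglycan, 28.1, 336 and 13.04 and then 364, 36.05 and 0. All 3 were highest in control library 2 or IC library 1 and were not called (adjusted p = 0.932, 0.807 and 0.995). Cx3cr1, a chemokine receptor that marks LYVE1+CX3CR1+ macrophages, had 58.0, 150.2 and 92.6 and then 154, 41.0 and 16.5 CPM, with the same 2 libraries highest (adjusted p = 0.924). In LYVE1+CX3CR1+ controls the means of Vsig4, Vcan, Cspg4 and Cx3cr1 were 1170, 550, 407 and 432 CPM. These genes were chosen after their values were seen.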
